A study of Mus musculus with 5 samples.

Results

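Prostaglandins and leukotrienes are signalling lipids made from arachidonic acid. The 10 genes of their synthesis and breakdown followed here, in mouse gastric organoids (epithelial cultures grown from stomach), are the phospholipases Pla2g4a and Pla2g4c, the cyclooxygenases Ptgs1 and Ptgs2, the prostaglandin E synthase Ptges, the prostaglandin-inactivating dehydrogenase Hpgd, and the lipoxygenases Alox5, Alox12, Alox12b and Alox15. The 10 genes were chosen by their measured levels on these same 5 arrays, so their levels and differences are given as a description, with no test. They were found through the accession of each array probe, which gave 14 probes for the 10 genes. Each of these probes had 1 spot per array, and only 3 of the genes had more than 1 probe. All 10 were among the 17583 genes that entered the tests, and 7 of the 10 were well above background on all 5 arrays.

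RNA was measured on 5 one-colour microarrays, 1 per sample. Organoids recovered from subcutaneous tumours made up 4 samples, all with Trp53 loss. A pair of these carried a short hairpin RNA against Cdh1, shCdh1 #1 and shCdh1 #2 (hairpin 1 and hairpin 2 below), the third carried a truncating Apc allele, and the fourth an activating Pik3ca mutation. The control sample was Trp53 flox/flox organoids that carried the vector pLKO.1 with shLuc, a hairpin against luciferase, and it was taken before inoculation. No Trp53 loss is named for the control, so Trp53 loss, the added lesion and passage through a tumour all separate the tumour-derived samples from it and cannot be told apart. All samples were of stomach and shared one culture medium with EGF, R-spondin1, Noggin, Y27632, Jagged-1 and CHIR-99021. The labels do not say whether the samples came from separate animals or cultures, so the spread between them may in part be technical, and no genotype other than shCdh1 had more than 1 sample. Sex-linked genes, given below, set the donor of the Pik3ca organoids apart. Mouse ages, the host animals and the way in which Trp53 was lost are not given in the sources used here.

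Levels are the log2 scanner signal minus the 75th percentile of the same array, so a level of 0 is that of a bright probe and each unit is a doubling. Levels of different genes were not ranked against each other, because probes differ in brightness. Between 61.8% and 65.3% of the 59305 spots of an array were well above background and none was saturated. Trp53 stood at -5.06, -5.09, -5.86 and -4.86 for hairpin 1, hairpin 2, Apc and Pik3ca organoids, against 0.85 in the control. Cdh1 stood at 0.07 and 0.26 with hairpins 1 and 2, at 4.48 in Apc and 4.58 in Pik3ca organoids, against 4.39 in the control. All 5 samples are labelled female, but the Pik3ca array went against its label: Xist stood at -8.14 there, not well above background, and at -0.83, -0.82 and -0.69 in hairpin 1, hairpin 2 and Apc organoids, against -0.90 in the control. Eif2s3y, a Y-linked gene, was at 1.35 in Pik3ca organoids and not well above background on any other array. By these genes the Pik3ca organoids and the control came from donors of different sex. Donor animal and sex thus also separate them, and cannot be told apart from the lesion on the Pik3ca array. The mean differences of Pla2g4c, Ptgs1 and Alox12b are therefore also given without that array. Of 14 gastric epithelial markers, which include Epcam and Krt8, 13, 13, 13 and 14 were detected for hairpin 1, hairpin 2, Apc and Pik3ca organoids, against 14 in the control. The list's median level was lower in the tumours, at -0.10, 0.04, 0.53 and -1.48 for hairpin 1, hairpin 2, Apc and Pik3ca organoids, against 2.38 in the control. Cblif and Pgc had the largest differences of the list and are named for that. Cblif, the gastric intrinsic factor, averaged -0.44 ± 1.30 (SD, n = 4) in the tumours, against 3.97 in the control. Pgc, a pepsinogen, averaged -0.22 ± 1.57 (SD, n = 4), against 3.11. Epcam, Atp4a and Atp4b had a higher tumour mean than the control, by 0.94, 0.54 and 0.27. The other markers had a lower one, among them Krt8, Krt18 and Muc5ac, by -0.43, -0.07 and -0.13. The part of these marker differences in the values of the 10 genes was not tested.

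Phospholipases A2 release arachidonic acid from membranes. Cyclooxygenases turn it into prostaglandin H2, which terminal synthases convert to prostaglandin E2 and its relatives, and lipoxygenases turn it into hydroperoxy acids and leukotrienes. In stomach, prostaglandins are known for protecting the mucosa, and Ptgs1 is known as the constitutive cyclooxygenase and Ptgs2 as the inducible one. Some epithelial lipoxygenases act in the skin barrier.

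The promoter sequences of 4 genes are shown because these genes stood differently in the tumours: Ptgs1 high in all of them, its relative Ptgs2 close to the control, Alox5 not well above background in any, and Alox12 highest with Apc. Each is the 250 bases before the annotated start, 5′ to 3′ on the gene's strand, from RefSeq on GRCm38.p6. Ptgs1 lies at chr2:36230176-36230425 on the plus strand, Ptgs2 at chr1:150099781-150100030 on the plus strand, Alox5 at chr6:116461179-116461428 on the minus strand and Alox12 at chr11:70255371-70255620 on the minus strand. Capitals mark matches to the GC box and, in Alox12, the p53 half-site.
Ptgs1: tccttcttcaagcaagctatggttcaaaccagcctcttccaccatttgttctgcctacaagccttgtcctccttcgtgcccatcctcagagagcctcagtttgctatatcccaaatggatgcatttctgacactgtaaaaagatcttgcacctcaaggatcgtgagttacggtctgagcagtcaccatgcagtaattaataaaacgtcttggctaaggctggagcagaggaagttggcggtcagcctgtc
Ptgs2: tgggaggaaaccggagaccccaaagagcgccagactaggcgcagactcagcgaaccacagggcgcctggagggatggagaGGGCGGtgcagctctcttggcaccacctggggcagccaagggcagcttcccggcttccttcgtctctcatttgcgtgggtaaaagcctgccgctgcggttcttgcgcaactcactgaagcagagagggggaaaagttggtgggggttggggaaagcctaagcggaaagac
Alox5: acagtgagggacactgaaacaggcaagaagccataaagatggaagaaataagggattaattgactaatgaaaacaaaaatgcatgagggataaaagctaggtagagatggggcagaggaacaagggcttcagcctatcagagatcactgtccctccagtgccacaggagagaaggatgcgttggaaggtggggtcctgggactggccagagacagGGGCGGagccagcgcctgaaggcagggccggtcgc
Alox12: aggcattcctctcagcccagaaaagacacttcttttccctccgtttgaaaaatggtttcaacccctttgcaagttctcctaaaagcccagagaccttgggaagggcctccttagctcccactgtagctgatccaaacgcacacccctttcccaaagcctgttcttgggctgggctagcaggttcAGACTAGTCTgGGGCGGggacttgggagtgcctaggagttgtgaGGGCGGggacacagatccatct

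Among the 9 genes with a promoter in that table, which gave 11 windows since some have more than 1 start, both strands were searched for 7 motifs. The GC box (GGGCGG) was in 6 of the 11 windows and in 32.7% of all 32851 promoters of the same length. The p53 half-site was in 3 of 11 windows, which belong to 2 of the 9 genes since 2 are starts of Pla2g4a, and in 7.13% of all promoters. The TATA box (TATAAA) and the CCAAT box (CCAAT) were each in 1 of 11 windows, and in 12.4% and 33.8% of all promoters. The E-box (CACGTG), the CRE core (ACGTCA) and the AP-1 site (TGAGTCA or TGACTCA) were in 0 of 11 windows, and in 6.02%, 6.47% and 4.46% of all promoters; E-box and CRE core matches can overlap. The Ptgs1 window held none of the 7 motifs. Counted from the start, the match in Ptgs2 begins at -170 and that in Alox5 at -35. Alox12 had 2 GC boxes, the first at -55, and a half-site at -66. A match describes letters only, and no binding was measured.

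The release step showed 2 patterns. Pla2g4a, the cytosolic phospholipase that prefers arachidonic acid, had levels of 3.17, 3.39, 2.85 and 3.01 for hairpin 1, hairpin 2, Apc and Pik3ca organoids, against 3.68 in the control. All 4 tumour-derived samples lay below the control, and their mean of 3.11 ± 0.23 (SD, n = 4) was 1.48-fold lower. Pla2g4c, a related cytosolic phospholipase that does not need calcium in its human form, was at -3.26, -4.10 and -2.55 in hairpin 1, hairpin 2 and Apc organoids, and at -7.17 in Pik3ca organoids, where it was not well above background, against -0.47 in the control. The signal was 6.91-, 12.4- and 4.23-fold lower than the control in hairpin 1, hairpin 2 and Apc organoids and at least 43.8-fold lower in Pik3ca organoids. For such a bound, here and below, the value not well above background is replaced by the dimmest signal that the array still measured well above background, unless its own signal is higher. Like Pla2g4a, Pla2g4c was lower in all 4 tumour-derived samples than in the 1 control sample, as 24.4% of all genes tested were. Without the Pik3ca array the mean difference was -2.83 on the log2 scale. Over all 4 it was -3.49 with the dim Pik3ca signal set at its floor, and -2.54 with normexp background correction and quantile normalization. A second, dimmer Pla2g4c probe showed the same order, with -3.51, -4.13, -2.71 and -7.47 for hairpin 1, hairpin 2, Apc and Pik3ca organoids (the last not well above background) against -1.34 in the control. Its folds were smaller: 4.48-, 6.88- and 2.58-fold lower in hairpin 1, hairpin 2 and Apc organoids, and at least 23.9-fold lower in Pik3ca organoids.

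Of the 10 genes, Ptgs1 stood highest above the control in every tumour-derived sample, while its relative Ptgs2 stayed within 2-fold of the control in all of them. Ptgs1, cyclooxygenase 1, had levels of 2.17, 3.05, 3.04 and 2.17 for hairpin 1, hairpin 2, Apc and Pik3ca organoids, against -1.99 in the control. It had 1 probe, so each of these levels is 1 spot on 1 array. The tumour mean of 2.61 ± 0.51 (SD, n = 4) was 24.1-fold higher than the control, and the single samples were 17.8-, 32.8-, 32.6- and 17.8-fold higher. Its difference ranked 54 from the highest of 17583 genes, and the difference without the Pik3ca array was 4.74 against 4.59 with it. The lowest tumour-derived sample lay 4.16 above the 1 control sample, while the 4 samples spanned 0.88. Of all genes tested, 30.2% were higher in all 4 tumour-derived samples than in the control, by any size. Ptgs2, cyclooxygenase 2, was at -0.53, -0.28, -0.93 and -0.25 for hairpin 1, hairpin 2, Apc and Pik3ca organoids, against -1.0 in the control. The mean of -0.50 ± 0.32 (SD, n = 4) was 1.42-fold higher, and Apc organoids were within 1.05-fold of the control. Ptgs2 and Pla2g4a lie beside each other on chromosome 1, with 0 protein-coding genes between them in RefSeq, and they stood on opposite sides of the control.

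**Figure D1:**
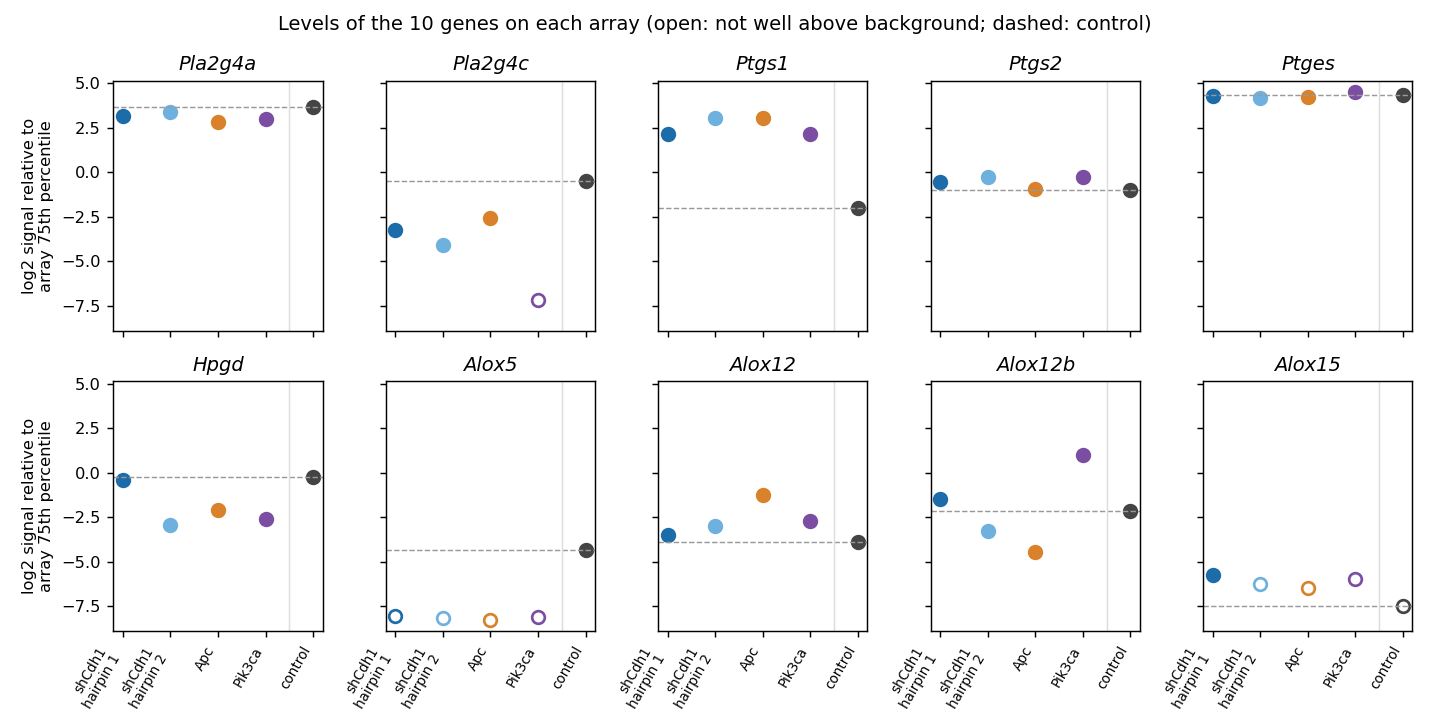
Levels of the 10 genes on each array, with the array on the x axis and the log2 signal relative to the array's 75th percentile on the y axis; filled points are well above background, open points are not, and the dashed line is the control. Ptgs1 sits between 2.17 and 3.05 in the 4 tumour-derived samples, against -1.99 in the control, and Alox5 is open in the 4 tumour-derived samples and filled at -4.33 in the control.

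The last synthetic step and the breakdown step also differed. Ptges, the inducible microsomal prostaglandin E synthase, was at 4.30, 4.18, 4.22 and 4.49 for hairpin 1, hairpin 2, Apc and Pik3ca organoids, against 4.37 in the control. On this probe, the brightest of Ptges, the 4 tumour-derived samples surrounded the control value. Their mean was within 1.05-fold of it, and their SD was 0.14. The other Ptges probes gave mean differences of -0.14 and -0.17, beside -0.07 for the brightest, and on both of them hairpin 1 lay above the control. Apc organoids were 1.6- and 1.66-fold lower than the control on these probes, against 1.11-fold on the brightest. The SD among the tumours was 0.38 and 0.44 there. Hpgd, which oxidises and so inactivates prostaglandin E2, was at -0.39, -2.94, -2.12 and -2.63 for hairpin 1, hairpin 2, Apc and Pik3ca organoids, against -0.27 in the control. Hairpin 1 was within 1.09-fold of the control, whereas hairpin 2, Apc and Pik3ca organoids were 6.34-, 3.59- and 5.11-fold lower. Hairpin 1 was thus closest to the control, and the mean difference was -1.75 with it and -2.29 without it. With 1 array per hairpin, whether that gap exceeds the spread between cultures was not tested. The samples with the same target gene, Cdh1, differed 5.83-fold in Hpgd.

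Among the lipoxygenases, 1 was well above background in the control alone, 1 was higher in all tumours, 1 varied in both directions, and 1 was near background. Alox5, which starts leukotriene synthesis, was at -8.05, -8.15, -8.29 and -8.10 for hairpin 1, hairpin 2, Apc and Pik3ca organoids, in all of which it was not well above background, against -4.33 in the control, where it was. The tumours were at least 3.16-fold lower, and the single samples at least 2.95-, 2.99-, 3.74- and 3.02-fold lower. Beyond that bound the size is not measured, and with normexp background correction and quantile normalization the mean difference was -0.82 on the log2 scale, which is smaller than the bound.

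Alox12, which makes the 12-hydroperoxy acid in platelets, was at -3.48, -2.98, -1.28 and -2.73 for hairpin 1, hairpin 2, Apc and Pik3ca organoids, against -3.91 in the control. It was 1.35-, 1.91-, 6.22- and 2.27-fold higher, and the mean difference was 1.30 with an SD of 0.95 among the tumours. The Apc sample was well above the rest, and the mean difference was 0.85 without it. A second Alox12 probe had -5.04, -4.84, -2.86 and -4.66 for hairpin 1, hairpin 2, Apc and Pik3ca organoids, against -5.95 in the control, where it was not well above background, so Apc was highest on both probes. Alox12e, an epidermal-type 12-lipoxygenase gene that lies next to Alox12 in RefSeq, was at -4.99 in hairpin 2 and -2.15 in Apc organoids and not well above background in hairpin 1 organoids, Pik3ca organoids or the control. Both genes were thus highest in the Apc sample. How far one gene's transcripts bind the other's probe was not tested.

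Alox12b, which makes the 12R-hydroperoxide in the skin barrier, had levels of -1.50, -3.26, -4.49 and 0.97 for hairpin 1, hairpin 2, Apc and Pik3ca organoids, against -2.17 in the control. It was 1.59-fold higher with hairpin 1 and 8.79-fold higher in Pik3ca organoids, and 2.14-fold lower with hairpin 2 and 5.02-fold lower in Apc organoids. The tumours spanned 5.46 on the log2 scale, a wider span than in 99.2% of the genes tested, and the samples surrounded the control. Its mean difference was 0.09 over the 4 samples, -0.92 without Pik3ca and 0.90 without Apc. Alox15, the 12/15-lipoxygenase, was at -5.76 in hairpin 1 organoids, well above background, and at -6.26, -6.48 and -5.96 in hairpin 2, Apc and Pik3ca organoids, where it was not, against -7.48 in the control, where it was not either. Hairpin 1 was at least 1.24-fold higher than the control, and no fold is given for the other samples.

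Counting signals as measured over the 10 genes, Ptgs1, Ptgs2, Alox12 and Alox15 were higher in all 4 tumour-derived samples than in the control, as 30.2% of all genes tested were. Pla2g4a, Pla2g4c, Hpgd and Alox5 were lower in all 4, as 24.4% of all genes were, counting signals as measured. Ptges and Alox12b were mixed. The direction of Alox15 was measured well above background with hairpin 1 only, so a count that asks for such a measurement holds 3 higher genes. No share of all genes was computed by that stricter rule. The median difference was 0.01, beside 0.06 over all genes tested. Ptgs1 was at least 2-fold higher in 4 of 4 samples, as 556 genes were, or 3.16% of those tested. Alox5 and Pla2g4c were at least 2-fold lower in 4 of 4, as 487 genes were, or 2.77%. These percentages are the background only, since the 10 genes were selected on these values. The 2 hairpins differed at least 2-fold in 2 of the 10 genes, Hpgd and Alox12b, against 13.2% of all genes. The median span across the tumours was 0.80 for the 10 genes and 0.63 over all genes.

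**Figure D2:**
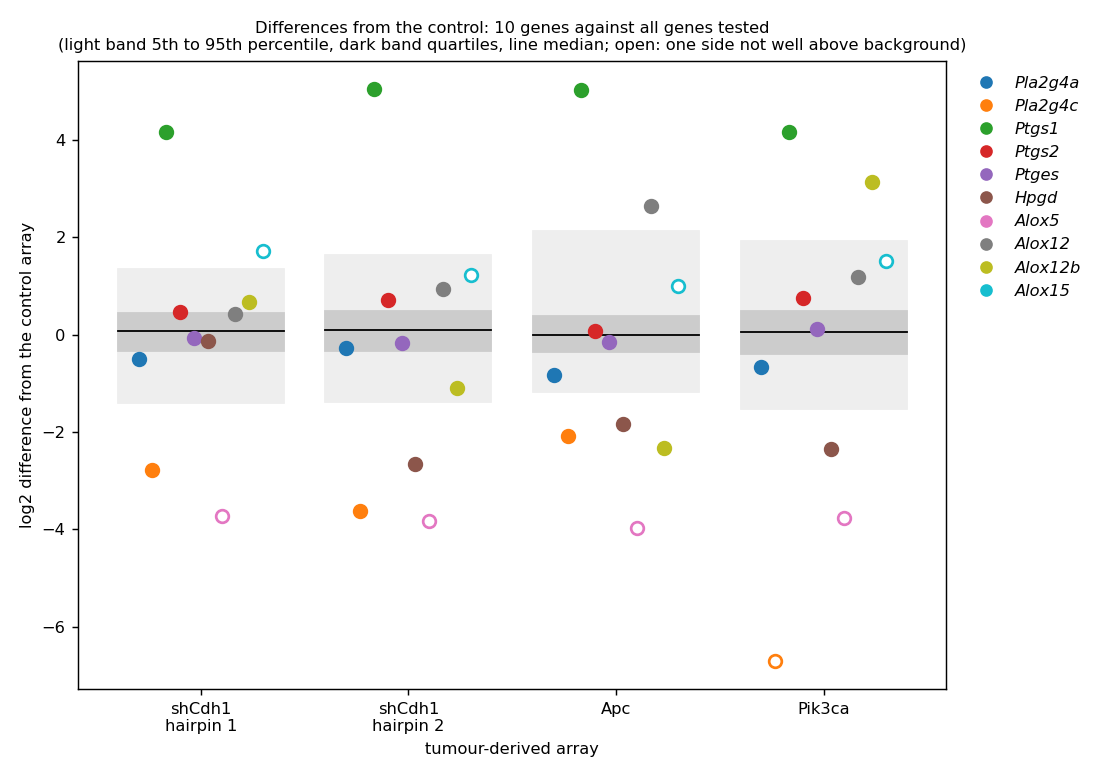
Differences of the 10 genes from the control on each tumour-derived array; the y axis is the log2 difference, the light band the 5th to 95th percentile of the 17583 genes, the dark band the quartiles, and open points have a side that is not well above background. Ptgs1 lies above the band on all 4 arrays, for example 5.04 against a 95th percentile of 1.63 with hairpin 2, and Alox12b lies at -2.33 in Apc and 3.14 in Pik3ca organoids.

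The other genes of the pathway were read from 7 lists of 79 genes, of which 77 had a probe and 59 entered the tests. None of the 59 passed limma's moderated test at an adjusted p of 0.05 between the 4 tumour-derived samples and the control; the smallest adjusted p was 0.12. Over all 17583 genes the same limma fit called 4 higher, or 0.0227%, and 17 lower, or 0.0967%. These 21 calls became 0 without the hairpin 1, the hairpin 2 or the Pik3ca array, and 0 within the slide that holds the control and both hairpins, and 19 without the Apc array. At an unadjusted p under 0.05 limma gave 14 of the 59, 4 higher and 10 lower, or 23.7%, beside 13.3% of all genes. With 1 control sample the fit assumes that the control varies as the tumours do, and an exact permutation test of 4 against 1 has too few arrangements to reach 0.05. In the terms used above for the 10 genes, 3 of the 59 were 2-fold higher in all 4 samples, or 5.08%, and 6 were 2-fold lower, or 10.2%.

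Of the 8 tested genes of prostaglandin transport and breakdown, none passed the adjusted threshold. A lower tumour mean was seen in 7 of the 8, against 44.6% of all genes tested, and the median difference was -1.47, beside 0.06 over all genes; on the single arrays it was -1.25, -1.78, -1.24 and -1.32 for hairpin 1, hairpin 2, Apc and Pik3ca organoids. Abcc4, a transporter that exports prostaglandins, was at 0.56, 0.55, 0.79 and 0.81 for hairpin 1, hairpin 2, Apc and Pik3ca organoids, against 2.19 in the control, with a difference of -1.52 ± 0.23 (SE) and a limma adjusted p of 0.167. Ptgr1, a reductase that inactivates prostaglandin and leukotriene metabolites, differed by -1.35 ± 0.47 (SE; limma adjusted p 0.347), and Slco2a1, the prostaglandin uptake transporter, by -1.48 ± 0.91 (SE; limma adjusted p 0.543). All 3 were lower in 4 of 4 tumour-derived samples; they were picked for their roles after the values were seen. Ephx2, an epoxide hydrolase for arachidonate epoxides, was at 1.89, 1.31, 1.25 and 1.54 for hairpin 1, hairpin 2, Apc and Pik3ca organoids, against 3.23 in the control (difference -1.73 ± 0.32 SE, limma adjusted p 0.222), and Akr1c14 differed by -1.89 ± 0.61 (SE; limma adjusted p 0.32). Ptgr2, another reductase of prostaglandin metabolites, is named as an exception to the naming rule given below. It differed by -0.12 ± 0.28 (SE, limma adjusted p 0.882) and was above the control with hairpin 1. Slco3a1 had a higher tumour mean, with -5.30, 1.30, -1.20 and -4.06 for hairpin 1, hairpin 2, Apc and Pik3ca organoids, against -4.41 in the control; the 2 hairpins were at the far ends of its range.

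Prostanoid synthases had a median difference of -0.30 over 10 genes. Gstm2, a glutathione transferase with prostaglandin E synthase activity in its human form, was at 4.34, 4.09, 3.97 and 4.12 for hairpin 1, hairpin 2, Apc and Pik3ca organoids, against 5.6 in the control, with a difference of -1.47 ± 0.24 (SE; limma adjusted p 0.182). Cbr1, a carbonyl reductase of prostaglandin E2, differed by -1.38 ± 0.52 (SE; limma adjusted p 0.368), and Ptgds, the prostaglandin D synthase, by -1.17 ± 0.92 (SE; limma adjusted p 0.632). Akr1c18, a reductase also known for steroids and next to Akr1c14 on chromosome 13, stood the other way. It was at -4.12, -3.45, -3.22 and -1.60 for hairpin 1, hairpin 2, Apc and Pik3ca organoids, against -6.70 in the control, where it was not well above background, which is at least 7.82-fold higher (limma adjusted p 0.277).

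Of the 11 tested genes of other lipoxygenases and leukotriene synthesis, Alox5ap had the largest difference among those detected on all arrays. Alox5ap, which presents arachidonic acid to the Alox5 enzyme, was at -2.25, -2.55, -1.80 and 0.05 for hairpin 1, hairpin 2, Apc and Pik3ca organoids, against -4.11 in the control, 5.54-fold higher (difference 2.47 ± 1.03 SE, limma adjusted p 0.398). It stood above the control in the samples in which Alox5 was not well above background. Ltc4s, the leukotriene C4 synthase, was at 0.82, -0.10, 0.29 and 0.42 for hairpin 1, hairpin 2, Apc and Pik3ca organoids, against 1.60 in the control (difference -1.24 ± 0.38 SE, limma adjusted p 0.31), and Mgst3, a glutathione transferase of the same family, differed by -1.32 ± 0.44 (SE; limma adjusted p 0.332). Aloxe3, the partner of Alox12b in the skin pathway and its neighbour on chromosome 11, was well above background with hairpin 2, at -4.03, in Apc organoids, at -4.27, and in Pik3ca organoids, at -5.10, but not with hairpin 1 or in the control. It was at least 4.11-, 3.47- and 1.95-fold higher in these 3 samples, and highest in the 2 with the lowest Alox12b.

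Ltb4r1, the high-affinity leukotriene B4 receptor, had the smallest adjusted p of the 59 genes. Its levels were -4.58, -4.44, -4.94 and -4.57 for hairpin 1, hairpin 2, Apc and Pik3ca organoids, against -2.39 in the control, 4.73-fold lower (difference -2.24 ± 0.27 SE, limma adjusted p 0.12). The other tested leukotriene and lipoxin receptors included Fpr2, which differed by 0.57 ± 0.30 (SE; limma adjusted p 0.482), and Cmklr1, which was at least 1.51-fold higher. Of the prostanoid receptor list, which also holds a receptor-binding protein, 4 genes were tested. Ptger4, a prostaglandin E2 receptor, differed by 0.30 ± 0.34 (SE, limma adjusted p 0.746). Ptgfrn, a protein that binds the prostaglandin F2 receptor, differed by 0.28 ± 0.28 (SE; limma adjusted p 0.706), and Ptgdr2, a prostaglandin D2 receptor, by -0.18 ± 0.43 (SE; limma adjusted p 0.883). The median over the 4 tested genes of that list was 0.05, near the 0.06 of all genes.

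The 12 tested phospholipases A2 had a median difference of -0.03 but a wide spread. Pla2g2d, a secreted enzyme, was at -4.58, -3.29, -4.37 and -4.09 for hairpin 1, hairpin 2, Apc and Pik3ca organoids, against -5.96 in the control, not well above background there and at least 3.67-fold higher in the tumours (limma adjusted p 0.288). Pla2g12b was at -1.37, -0.35, -0.74 and -3.16 for hairpin 1, hairpin 2, Apc and Pik3ca organoids, against 0.61 in the control (difference -2.02 ± 1.1 SE, limma adjusted p 0.496), and Pla2g10, another secreted enzyme, differed by -1.09 ± 0.58 (SE; limma adjusted p 0.49). Plaat3, a phospholipase of fat tissue, differed by -0.74 ± 0.35 (SE; limma adjusted p 0.449), and Pla2g3, a secreted enzyme, was at least 2.12-fold higher in the tumours (limma adjusted p 0.304). Pla2g1b, the pancreatic-type enzyme, named after its values were seen, was at -4.14, -3.39, -3.29 and -5.81 for hairpin 1, hairpin 2, Apc and Pik3ca organoids (the last not well above background), against 0.01 in the control (limma adjusted p 0.263). The 10 genes that return arachidonic acid to membranes had a median difference of -0.08. Mboat2, a lysophospholipid acyltransferase, was lower in 4 of 4 samples, with a difference of -0.74 ± 0.46 (SE; limma adjusted p 0.548), and Acsl4, an arachidonate-preferring acyl-CoA synthetase, differed by 0.55 ± 0.46 (SE; limma adjusted p 0.647).

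**Figure D3:**
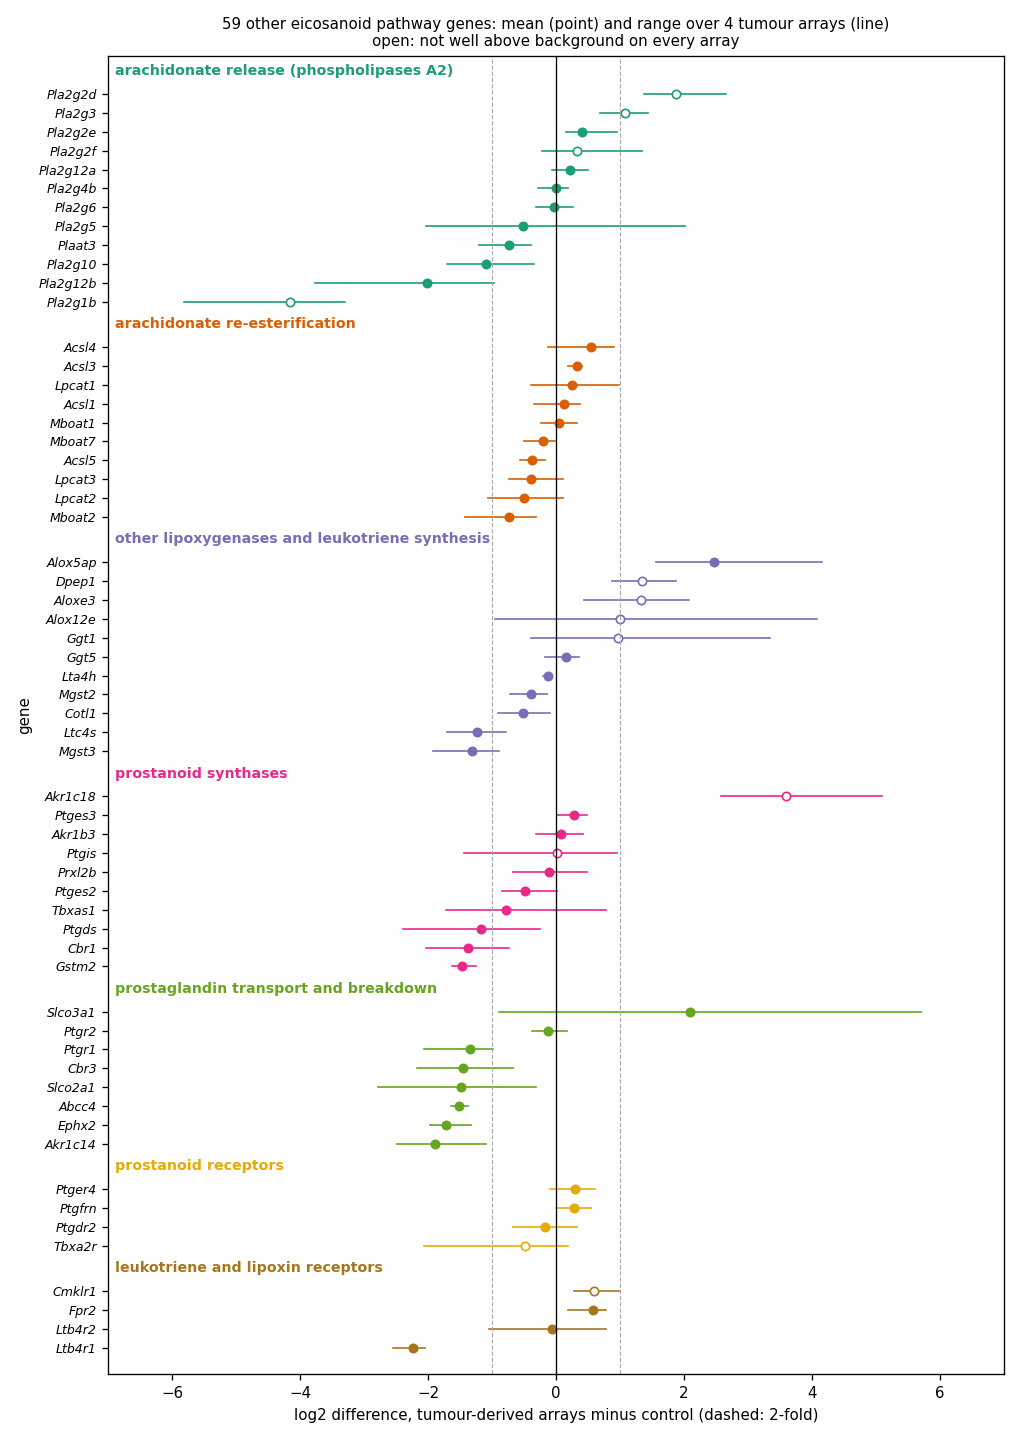
The 59 other pathway genes in 7 groups; the x axis is the log2 difference of the tumour-derived arrays from the control, points are means, lines span the 4 arrays and open points are not well above background on every array. In transport and breakdown 7 of 8 points lie below 0, with Slco3a1 above it at 2.09.

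Among the tumours, the pair with Cdh1 hairpins was set against the pair with the Apc and Pik3ca lesions, with the control left out. Slide and group coincide in this comparison and cannot be told apart: both hairpins were on one slide and Apc and Pik3ca on the other. limma called 0 genes at an adjusted p of 0.05, so the called share is 0%, with 805 genes, or 4.58%, at an unadjusted p under 0.05; an exact permutation test of 2 against 2 could not go below 0.333. Of the 59 pathway genes 3 had an unadjusted limma p under 0.05, or 5.08%. They were Lpcat2, an acyltransferase, with a mean of -3.40 with the hairpins and -2.31 with Apc and Pik3ca (difference -1.09, limma adjusted p 0.93), Ltb4r2, with -4.27 and -5.48 (1.21, limma adjusted p 0.99), and Ptgdr2, with -4.72 and -5.41 (0.69, limma adjusted p 0.99). For the 10 genes, Alox12 had means of -3.23 ± 0.36 (SD, n = 2) for the hairpins and -2.0 for the other pair, and Hpgd had -1.67 ± 1.80 (SD, n = 2) and -2.37. Pla2g4c had -3.68 ± 0.60 (SD, n = 2) and, with the dim Pik3ca signal at its floor, -4.24. Ptgs1 had means of 2.61 ± 0.62 (SD, n = 2) and 2.60.

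The control shares its slide with both hairpins, so their difference from it lies within 1 slide. Within that slide Ptgs1 differed by 4.60, Pla2g4c by -3.21 and Hpgd by -1.39 from the control, and Alox12 by 0.68, against 1.30 over all 4 tumours.

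Levels of other cell types bear on genes such as Ptgs1, Alox5 and Alox5ap, which tuft cells and leukocytes also express, and on Alox12 and Alox12b, known from platelets and skin. In such bulk samples fewer cells of a type and less RNA per cell cannot be told apart. Tuft cell markers, 12 with a probe, had 7, 6, 7 and 10 detected for hairpin 1, hairpin 2, Apc and Pik3ca organoids, against 8 in the control, and a summed signal of 17.8 to 24.6 times the 75th percentile in the tumours, against 17.3. Most of that sum was Avil, at 4.54, 4.40, 4.59 and 4.08 for hairpin 1, hairpin 2, Apc and Pik3ca organoids, against 4.08 in the control. Dclk1, a tuft cell marker, was at -4.58, -0.28, -3.59 and -1.15 for hairpin 1, hairpin 2, Apc and Pik3ca organoids, against -4.99 in the control, and Pou2f3 was at -6.15 to -5.73, not well above background with either hairpin or in the control, at -6.48. Chat, another tuft cell gene, was at -3.17, -3.41, -3.89 and -3.56 for hairpin 1, hairpin 2, Apc and Pik3ca organoids, against -3.55. Il17rb, Plcb2, Trpm5 and Gfi1b, all dim, had a lower tumour mean than the control, by -0.70, -0.32, -0.12 and -0.06 as measured. Gng13 did not differ, and Il25, also dim, was higher by 0.76. Of 12 leukocyte markers 6, 6, 8 and 4 were detected for hairpin 1, hairpin 2, Apc and Pik3ca organoids, against 5 in the control, with a summed signal of 6.03 to 7.98, against 6.12, and Adgre1, Tyrobp, Lyz2 and Cd79a were not detected on any array. Most of the leukocyte sum was Itgam, at 2.47, 2.28, 2.56 and 2.06 for hairpin 1, hairpin 2, Apc and Pik3ca organoids, against 2.06 in the control. Ptprc was well above background in hairpin 1, hairpin 2 and Apc organoids only.

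Of 7 platelet markers 5, 4, 6 and 5 were detected for hairpin 1, hairpin 2, Apc and Pik3ca organoids, against 4 in the control. Summed signals were 0.202 to 0.517, against 0.17 in the control, and Gp9 was not detected. Ppbp was well above background in all 4 tumour-derived samples and not in the control, at least 5.45-fold higher. Pf4 was 2.25-fold higher, whereas Itga2b and Gp6 had a lower tumour mean, by -0.84 and -0.17 as measured. Gp1bb differed by 0.12, and Itgb3 was well above background in Apc and Pik3ca organoids only. The 10 keratinocyte markers with a probe had 8, 8, 8 and 9 detected for hairpin 1, hairpin 2, Apc and Pik3ca organoids, against 8 in the control, and summed signals of 8.99 to 10.8, against 5.98. Krt14 was at -4.07, -3.87, -2.24 and -0.54 for hairpin 1, hairpin 2, Apc and Pik3ca organoids, against -4.83 in the control, and Krt5 was at -5.48, -5.46, -5.26 and -4.18 for hairpin 1, hairpin 2, Apc and Pik3ca organoids, against -3.51. Pik3ca organoids, highest in Alox12b, were highest in Krt14, Krt5 and Krt10 among the tumours, whereas Lor and Sbsn were highest with hairpin 2, Trp63 with hairpin 1, and Ivl was lowest of the tumours in Pik3ca organoids. Of 8 mast cell markers 3, 2, 4 and 4 were detected for hairpin 1, hairpin 2, Apc and Pik3ca organoids, against 4 in the control. Cpa3 and Mcpt4 were on no array, and the summed signal was 0.222 to 0.465, against 0.262. Kit was well above background in all 4 tumour-derived samples and not in the control, at least 6.61-fold higher. Cma1 was well above background in the control alone, and at least 3.52-fold lower in the tumours. Of 9 fibroblast markers 1, 3, 5 and 2 were detected for hairpin 1, hairpin 2, Apc and Pik3ca organoids, against 2 in the control; Col3a1, Pdgfrb, Lum and Postn were on no array, and the sum was 0.11 to 0.278 in the tumours, against 0.0866. Of 8 endothelial markers 5, 4, 4 and 4 were detected for hairpin 1, hairpin 2, Apc and Pik3ca organoids, against 4 in the control; Tie1 was on no array, and the sum was 1.65 to 3.03 in the tumours, against 4.92. Most of the endothelial sum was 1 gene, Esam, at 1.30, 0.78, 0.58 and 1.51 for hairpin 1, hairpin 2, Apc and Pik3ca organoids, against 2.21 in the control. Emcn was well above background in the control alone, and at least 10.9-fold lower in the tumours, whereas Kdr was so in hairpin 2, Apc and Pik3ca organoids only. The part of other cell types in the values of the 10 genes was not tested.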

How the data were processed

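RNA of 5 samples was hybridised to 1-colour Agilent arrays, 1 each. Per the file headers, the authors' deposited values are scanner intensities from Agilent Feature Extraction 11.0.1.1, background-corrected by that program. The deposited value table holds log2 values with a slope of 1 against the scanner values; its centring per probe is unknown, and its column medians are 0.074, 0.031, -0.08 and 0.022 in hairpin 1, hairpin 2, Apc and Pik3ca organoids, and -0.057 in the control. Control spots and outliers were left out, replicate spots of a probe averaged, and each array's log2 75th percentile subtracted. Of 56605 probes, 34549 had 1 gene symbol through their accession in RefSeq, 22024 had none or several, and 32 had no value. The brightest probe stood for a gene. Genes that 1 array or more measured well above background entered the fit, 17583 in all, by limma (version 3.58.1, under R 4.3.3; eBayes after lmFit; Benjamini-Hochberg over all genes, two-sided, threshold 0.05). The number of arrays limits the precision.

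The members and lists were chosen with earlier results of these data known. Named pathway genes were those past the threshold, the up to 3 per list with the largest difference among those detected on all arrays, and the up to 2 with the largest bound, with exceptions stated. Alternatives were background correction (normexp, offset 50, on median signals), normalization, a floor for dim signals, probe choice, the deposited table, the filter, the slide and each tumour-derived sample left out. Scripts were tested on simulated data. Of the list genes, 2 had no probe.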

Additional observations from a re-analysis of the deposited data

Results flagged for a closer look

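Alox12b differed from the control by -2.33 in Apc and by 3.14 in Pik3ca organoids, on the log2 scale, and so in opposite directions. Ptges differed by 0.12 in Pik3ca organoids, while hairpin 1, hairpin 2 and Apc lay below the control at -0.06, -0.18 and -0.15; the SD among the 4 was 0.14. That order holds on the brightest Ptges probe only: on the other probes hairpin 1 lay above the control by 0.20 and 0.30, and Pik3ca by 0.07 and 0.04. On these probes Apc differed from the control by -0.67 and -0.73, and hairpin 2 by -0.14 and -0.28. With 1 sample per genotype for Apc and Pik3ca, none of these differences was tested. Dixon's rule, used only to flag samples, flagged none of the 4 tumour-derived ones in any of the 10 genes. It treats samples of different genotypes as 1 group, and with 4 values it flags only extreme gaps. No conclusion is drawn from it.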

How the results depend on the processing

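The limma comparison of tumours with the control called 21 genes. It called 39 with normexp and quantile normalization, 49 with dim signals raised to a floor, 7 among genes detected on all arrays and 0 within the slide that holds the hairpins and the control (1821 at an unadjusted p under 0.05). Leaving out 1 tumour-derived sample gave 0 to 19 calls: 0 without hairpin 1, without hairpin 2 or without Pik3ca, and 19 without Apc. The pathway lists and the comparison among tumours had 0 calls under every alternative run. Of 100 alternative values for the 10 genes, 94 moved by less than the SD among the tumours, which is wide for Pla2g4c (2.04): it was -2.54 with normexp and quantile, against -3.80. The other 6 were Alox5, at -0.82 with normexp, -3.96 with quantile and -1.66 with the floor, against -3.82, and Alox15, at 0.08, 1.04 and 0.11, against 1.37; both are near background. Alox12b took either sign. The count of 94 is no measure of stability, since many alternatives could hardly move a value. Leaving out 1 of 4 samples cannot shift their mean by as much as their SD. The deposited table follows the scanner values with a slope of 1. Averaging probes changes nothing for genes with 1 probe, nor does the floor for genes well above background on every array. No paired analysis was possible because the labels pair no sample of one group with a sample of the other.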
